A study of Mus musculus with 6 samples.

Results

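The genes described here belong to the oxytocin, vasopressin, corticotropin-releasing hormone (CRH) and pituitary adenylate cyclase-activating polypeptide (PACAP) systems. They were picked by symbol as members of these systems, and all 8 were found among the 19943 genes of the deposited tables. The receptors are Oxtr for oxytocin, Avpr1a for vasopressin, Crhr1 and Crhr2 for CRH and its urocortin relatives, and Adcyap1r1, which encodes the PAC1 receptor, for PACAP. The ligand genes are Crh and Adcyap1, the gene of PACAP, and Crhbp encodes a secreted protein that binds CRH. RNA was sequenced from the medial prefrontal cortex, a frontal cortical region, of C57BL/6 mice. There were 3 libraries of mice housed alone for 3 weeks after weaning (SI 1 to 3) and 3 libraries of control mice (Control 1 to 3), whose housing, sex and number per library are not stated in the labels. Every sample is labelled as 6 weeks old, whereas the text on the design gives 7 weeks.

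These peptides act on G protein-coupled receptors. The oxytocin receptor and the vasopressin V1a receptor signal mainly through Gq and phospholipase C, and the CRH and PACAP receptors mainly through Gs and cyclic AMP. Oxytocin and vasopressin are made chiefly in the hypothalamus and shape social behaviour. CRH starts the hormonal stress response from the hypothalamus and is also made by cortical interneurons, and PACAP is made by excitatory neurons of the forebrain, among other cells.

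The libraries held 18390902 to 18606573 expected counts in SI and 18226448 to 18544306 in Control, an expected count being an estimate in which reads that match several genes are shared out. All 13 interneuron markers, all 10 deep-layer and all 8 upper-layer cortical markers examined reached a mean of at least 1 FPKM (a level corrected for gene length and sequencing depth). Markers of striatal projection neurons, which belong to a neighbouring region, summed to 248.5, 245.2 and 1095 FPKM in SI 1, SI 2 and SI 3 and to 489.1, 1529 and 160.4 FPKM in Control 1, Control 2 and Control 3. SI 3 and Control 2 therefore stood apart from the rest. Values without these 2 libraries are given for the tested genes among the 8, but not for ratios or for further pathway genes. In such bulk tissue, fewer cells of a type and less RNA per cell cannot be told apart. The labels do not say whether each library is a different animal. The p-values thus measure only the spread between these libraries, which may be technical.

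None of the 8 genes passed the test for a difference between SI and Control. Of the 7 with enough counts for edgeR's quasi-likelihood test, 0 reached an adjusted p under 0.05 in either direction, and each of the 7 had an adjusted p of 0.999. Over all 15169 genes tested, 0% were called. At an unadjusted p under 0.05 edgeR had 1 of the 7, Oxtr, against 3.53% of all genes. Its mean was lower in SI, as was that of 2% of all genes at that level. Oxtr was also the 1 gene of the 7 whose groups did not overlap, against 8.85% of all genes in either direction and 4.73% with SI lower. The median log2 difference (SI over Control) of the 7 was -0.007, and that of all genes was -0.0018. Means of 3 of the 7 were higher and those of 4 were lower in SI.

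**Figure D1:**
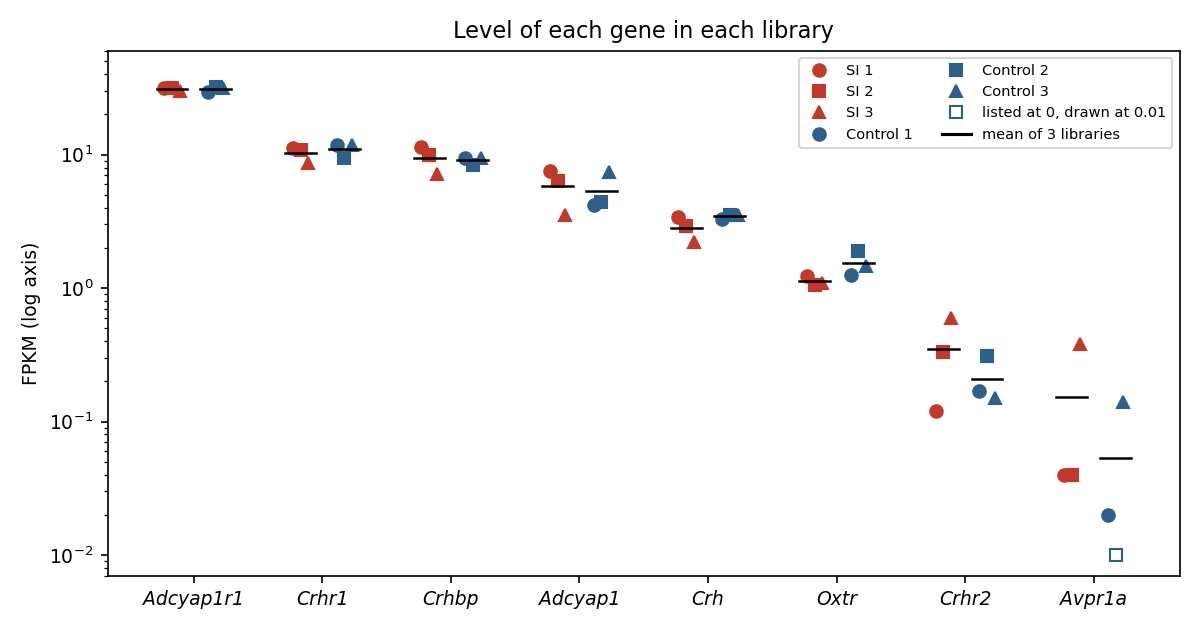
FPKM (log axis) of the 8 genes in each SI library (red) and each Control library (blue), ordered by mean level, with the mean of 3 libraries as a line. Adcyap1r1 lies near 31 FPKM in both groups, and Crhr2 and Avpr1a lie below 1 FPKM in all 6 libraries.

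The genes differed far more from each other than between the groups. On the length-corrected FPKM scale the PACAP receptor gene Adcyap1r1 was the most abundant, with a mean of 31.1 FPKM over the 6 libraries. Below it came Crhr1 at 10.6, Crhbp at 9.29, Adcyap1 at 5.56, Crh at 3.15, Oxtr at 1.33, Crhr2 at 0.28 and Avpr1a at 0.103 FPKM. Adcyap1r1 was 2.93-fold above Crhr1, and their ranges over the libraries did not meet. Crhr1 and Crhbp were not separated, since Crhr1 was higher in 5 of 6 libraries and their ranges overlapped. The ranges of Crhbp and Adcyap1 and those of Adcyap1 and Crh overlapped across libraries, although within each of the 6 libraries the first of each pair was higher. Crh lay above Oxtr, and Oxtr above Crhr2, with no overlap. Crhr2 and Avpr1a overlapped, both near the limit of detection at this depth.

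Oxtr encodes the receptor through which oxytocin acts, and in cortex it is known from interneurons among other cells. The gene lies on chromosome 6 (chr6:112473683-112491035, GRCm38). It stood at 1.23, 1.05 and 1.10 FPKM in SI 1, SI 2 and SI 3, against 1.25, 1.91 and 1.46 FPKM in Control 1, Control 2 and Control 3. All 3 SI libraries lay below all 3 Control libraries, but the nearest pair, SI 1 and Control 1, had 105.07 and 106.01 expected counts, which is no gap beyond counting error. In CPM, counts scaled to the library's total with TMM factors, Oxtr averaged 5.18 ± 0.455 in SI and 7.07 ± 1.51 in Control (SD, n = 3 each). The log2 difference was -0.45 (SE 0.17, 95% interval -0.85 to -0.05) at an unadjusted p of 0.034 and an adjusted p of 0.999 by edgeR.

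The size of the Oxtr difference rested on Control 2. Without Control 2 the log2 difference was -0.27 (edgeR, unadjusted p = 0.113), and without Control 2 and SI 3 together it was -0.24 (edgeR, unadjusted p = 0.19). With the striatal marker level as a covariate it was -0.43 (edgeR, unadjusted p = 0.031, adjusted p = 0.785). Without Control 1 it was larger, at -0.58 (edgeR, unadjusted p = 0.011, adjusted p = 0.933). The spread of Oxtr among SI libraries, a coefficient of variation of 8.79%, was no larger than the 10.2% that counting alone gives at these counts, whereas among Control libraries it was 21.4% against 8.78%. Expected counts of Oxtr were not whole in any of the 6 libraries, so some of its reads were shared out with other sequence, although no exon of another gene overlaps its exons in GENCODE M21.

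The summed levels of some cell marker lists were also apart between the groups. The 8 upper-layer markers summed to 129 to 157 FPKM in SI and 160 to 168 FPKM in Control, and the 7 astrocyte markers to 692 to 714 FPKM in SI and 740 to 752 FPKM in Control. The 10 deep-layer markers went the other way, at 197 to 221 FPKM in SI and 179 to 196 FPKM in Control. The 13 interneuron markers overlapped, at 1066 to 1193 FPKM in SI and 992 to 1144 FPKM in Control. Of these, Gad1, Gad2, Slc32a1, Reln and Calb2 were highest in SI 3 and Control 2, the libraries with the most striatal marker RNA. Vip, Npy, Lamp5 and Cck, the most abundant, were lowest in these 2 libraries. The interneuron sum thus mixes opposite patterns and does not show equal interneuron content. The sums of the other marker lists examined overlapped as well. Within the lists that were apart, most single genes overlapped in FPKM. The exceptions were Rorb (upper-layer), Fezf2 and Etv1 (deep-layer), and Aqp4 and Slc1a2 (astrocyte). The nearest Fezf2 values were 15.66 FPKM in SI 3 and 15.6 FPKM in Control 3. For Aqp4 they were 16.72 FPKM in SI 3 and 16.76 FPKM in Control 1. In CPM Fezf2 overlapped, at 35.6 in SI 3 and 36.2 in Control 3. Of all genes tested, 8.85% had groups that did not overlap in CPM. The deep-layer genes Bcl11b, Foxp2, Tle4 and Syt6 were highest in SI 3 and Control 2, whereas Tbr1 and Tshz2 were lowest there. The part of these cell types in the Oxtr values was not tested.

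Avpr1a, the V1a receptor gene on chromosome 10 (chr10:122448499-122453453), was barely detected. It had 2, 2 and 19 expected counts in SI 1, SI 2 and SI 3, against 1, 0 and 7 in Control 1, Control 2 and Control 3. SI 3 held 19 of the 23 counts of the SI group and Control 3 held 7 of the 8 of the Control group. The exact 95% Poisson interval of the SI 3 count runs from 11.4 to 29.7, and that of the Control 3 count from 2.81 to 14.4. Both cover counting error only. The 0 in Control 2 allows up to 3 counts, or 0.165 CPM, taken as an upper limit alone. Its exact two-sided interval reaches 3.69 counts. The gene did not pass the filter on low counts and was not tested. Septal markers, from a region where this receptor is abundant, summed to 25.6 FPKM in SI 3 and to between 10.6 and 12.8 FPKM in the other 5 libraries, with Zic1 at 10.1 FPKM in SI 3, and their part in the Avpr1a count was not tested.

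Crh, the CRH gene on chromosome 3 (chr3:19693401-19695396), stood at 3.38, 2.93 and 2.21 FPKM in SI 1, SI 2 and SI 3, against 3.31, 3.54 and 3.55 FPKM in Control 1, Control 2 and Control 3. SI 2 and SI 3 lay below every Control library, while SI 1 lay above Control 1, so the groups overlapped. Crh averaged 3.75 ± 0.82 CPM in SI and 4.58 ± 0.18 CPM in Control (SD, n = 3 each). The log2 difference was -0.29 (SE 0.18, 95% interval -0.71 to 0.13), by edgeR (unadjusted p = 0.148, adjusted p = 0.999). It was -0.13 without SI 3, the lowest library, and -0.12 without Control 2 and SI 3. Each value rests on 54 to 86 expected counts. The coefficient of variation among SI libraries was 21.9%, against 12% from counting alone, and among Control libraries it was 3.92%, against 10.9%.

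Crhbp, on chromosome 13 (chr13:95431376-95444831), encodes the protein that holds CRH away from its receptors. It stood at 11.3, 9.89 and 7.20 FPKM in SI 1, SI 2 and SI 3, against 9.49, 8.42 and 9.42 FPKM in Control 1, Control 2 and Control 3. The highest and the lowest library were both SI. The log2 difference was 0.06 (SE 0.16, 95% interval -0.33 to 0.44), by edgeR (adjusted p = 0.999). Without SI 3 it was 0.23, without SI 1 it was -0.10 and without Control 2 and SI 3 it was 0.17, so no direction can be given.

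The amount of Crhbp relative to Crh was nearly the same in the 3 SI libraries, although both genes varied among them. Within a library the ratio of their FPKM values was 3.36, 3.38 and 3.26 in SI 1, SI 2 and SI 3, against 2.87, 2.38 and 2.65 in Control 1, Control 2 and Control 3. All 3 SI libraries lay above all 3 Control libraries. The geometric mean ratio was 3.33 in SI and 2.63 in Control, a log2 difference of 0.34. An exact two-sided permutation test over the 6 libraries gave p = 0.1, the smallest that 3 against 3 can give, and an adjusted p of 0.3 over the 3 ratios tested, so the difference did not pass. On the log2 scale the SD of the ratio was 0.027 in SI and 0.135 in Control. Both were below the 0.195 in SI and 0.179 in Control that counting error alone gives on average for 1 library. The closeness of the ratios within a group can therefore not be taken as a trait of the libraries. The difference stayed between 0.27 and 0.41 when any 1 library was left out.

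**Figure D2:**
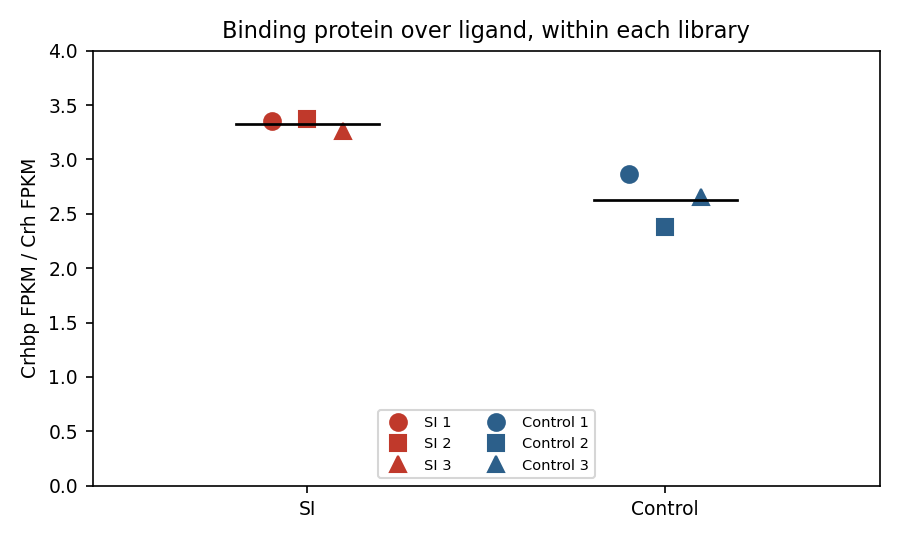
Ratio of Crhbp FPKM to Crh FPKM within each library (points) with the geometric mean of each group (lines). The 3 SI libraries lie between 3.26 and 3.38, and the 3 Control libraries lie between 2.38 and 2.87.

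The 2 CRH receptor genes were expressed at very different levels. Crhr1, the main CRH receptor of the forebrain, lies on chromosome 11 (chr11:104130463-104175523) and stood at 11.2, 10.8 and 8.65 FPKM in SI 1, SI 2 and SI 3, against 11.9, 9.48 and 11.7 FPKM in Control 1, Control 2 and Control 3. Within each group the lowest value was that of the library with the most striatal marker RNA, SI 3 and Control 2. The log2 difference was -0.11 (SE 0.13, 95% interval -0.42 to 0.21), by edgeR (adjusted p = 0.999). It was -0.10 without these 2 libraries, 0.0034 without SI 3 alone and -0.22 without Control 2 alone.

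Crhr2, which binds urocortins and CRH, lies on chromosome 6 (chr6:55090048-55133016). It had 6, 16 and 29 expected counts in SI 1, SI 2 and SI 3, against 8, 14 and 7 in Control 1, Control 2 and Control 3. SI 1 was the lowest and SI 3 the highest of the 6, so the groups overlapped. Its log2 difference was 0.79 (SE 0.56, 95% interval -0.51 to 2.09) by edgeR (adjusted p = 0.999), and it was 0.18 without SI 3, 1.19 without SI 1 and 0.54 without Control 2 and SI 3. At this depth a change of up to 4.26-fold upward lies within that interval. Choroid plexus markers summed to 6.87 FPKM in SI 3 and to between 1.89 and 4.16 FPKM in the other libraries. Only 1 of these 8 markers reached a mean of 1 FPKM. The septal markers were also highest in SI 3, at 25.6 FPKM. The part of either list in the Crhr2 count was not tested. The transcript length that the authors' table assigns to Crhr2 was 2607 bases in each SI library and 2497 bases in each Control library. Its FPKM is thus divided by a length that is 4.41% larger in SI, which the counts are not. Among 16692 genes listed in all 6 libraries, 7 had a length that was constant within each group and different between the groups.

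The ratio of Crhr1 to Crhr2 was 93, 32.8 and 14.4 in SI 1, SI 2 and SI 3, against 70, 30.6 and 78.3 in Control 1, Control 2 and Control 3. It varied as much within as between the groups (exact permutation test, two-sided, p = 0.7, adjusted p = 0.9).

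Adcyap1, the PACAP gene on chromosome 17 (chr17:93198245-93206541), was the most variable of the 6 genes above 1 FPKM. It stood at 7.52, 6.36 and 3.54 FPKM in SI 1, SI 2 and SI 3, against 4.16, 4.39 and 7.39 FPKM in Control 1, Control 2 and Control 3. SI 1, SI 2 and Control 3 were high and SI 3, Control 1 and Control 2 were low, so the groups overlapped throughout. It averaged 19.3 ± 6.95 CPM in SI and 17.8 ± 6.17 CPM in Control (SD, n = 3 each), and the log2 difference was 0.12 (SE 0.31, 95% interval -0.62 to 0.85), by edgeR (adjusted p = 0.999). The coefficient of variation within a group was 36.1% in SI and 34.7% in Control, against 5.3% in SI and 5.54% in Control from counting alone.

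The low libraries of Adcyap1 were those with the most striatal marker RNA. SI 3, Control 1 and Control 2, with 1095, 489.1 and 1529 FPKM of striatal markers, had 3.54, 4.16 and 4.39 FPKM of Adcyap1. SI 1, SI 2 and Control 3, with 248.5, 245.2 and 160.4 FPKM of striatal markers, had 7.52, 6.36 and 7.39 FPKM. Within the low libraries the order did not follow the markers, since Control 2 had the most striatal RNA and the highest Adcyap1 of the 3. The 8 oligodendrocyte markers summed to 1400, 1520 and 2654 FPKM in SI 1, SI 2 and SI 3 and to 1817, 1292 and 1073 FPKM in Control 1, Control 2 and Control 3, so they were highest in SI 3 and Control 1, but not in Control 2. The part of either cell type in the Adcyap1 values was not tested. With the striatal marker level as a covariate the log2 difference between the groups was 0.08 (edgeR, adjusted p = 0.968), and without Control 2 and SI 3 it was 0.25. The covariate fit tests the groups only and gives no result for the markers. Crhr1 and Crhbp were also at their lowest in SI 3 and, within Control, in Control 2, whereas Oxtr was highest in Control 2. Adcyap1r1 was not among these, with 30.0 FPKM in SI 3 and 32.2 FPKM in Control 2.

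**Figure D3:**
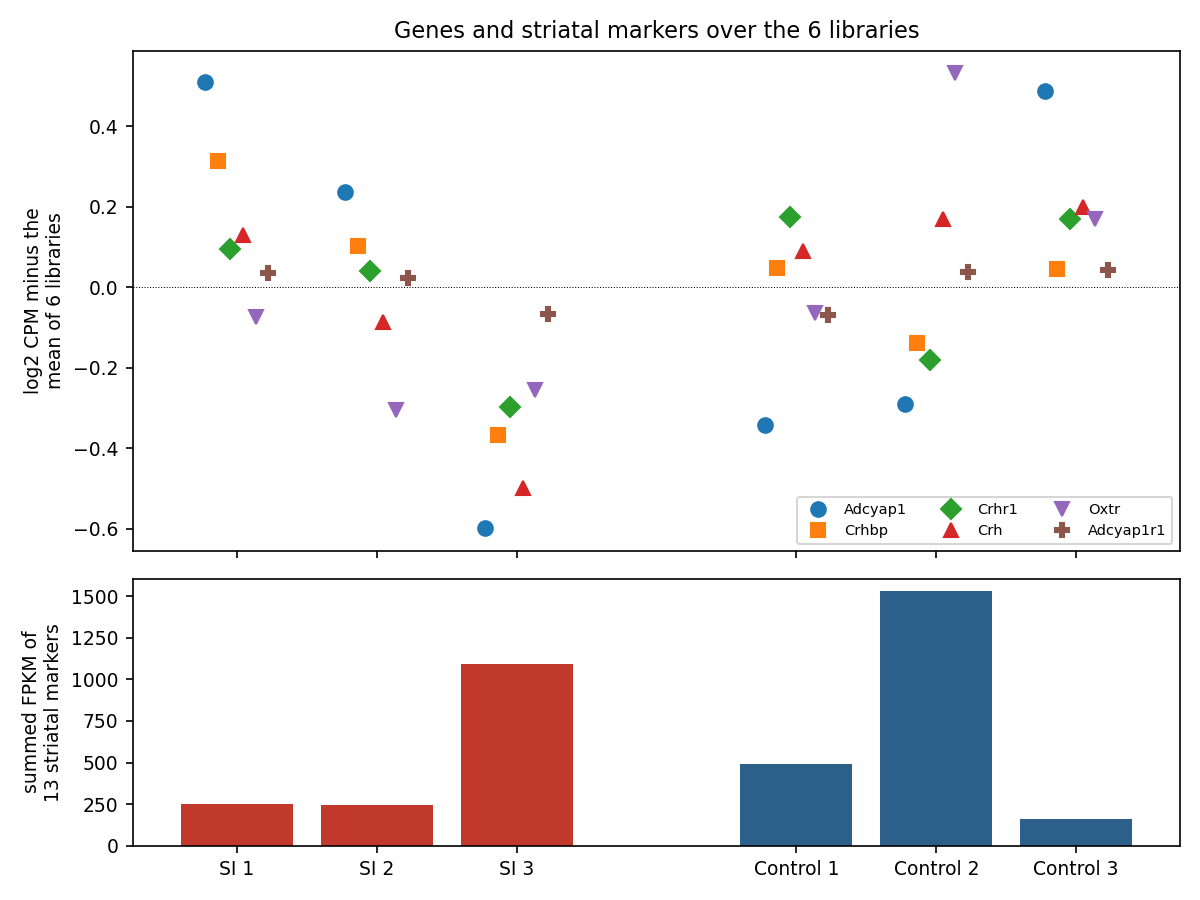
Top, log2(CPM + 0.1) of 6 genes in each library minus the mean of the 6 libraries. Bottom, summed FPKM of 13 striatal markers in the same libraries. Adcyap1 is low in SI 3, Control 1 and Control 2, the libraries with the tallest bars, and Adcyap1r1 stays between -0.07 and 0.04.

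Adcyap1r1, on chromosome 6 (chr6:55451501-55501455), was the steadiest. It stood at 31.6, 31.6 and 30.0 FPKM in SI 1, SI 2 and SI 3, against 29.6, 32.2 and 31.7 FPKM in Control 1, Control 2 and Control 3. The groups overlapped throughout. The log2 difference was -0.007 (SE 0.058, 95% interval -0.14 to 0.13), by edgeR (adjusted p = 0.999), and it was 0.042 without Control 2 and SI 3. A change beyond 1.09-fold upward or to below 0.907-fold lies outside the interval. Each library gave 3441 to 3686 expected counts for this gene. As for Oxtr, these counts were not whole in any of the 6 libraries, so some of its reads were shared out with other sequence. The receptor exceeded its ligand 4.21-, 4.97- and 8.48-fold in SI 1, SI 2 and SI 3, against 7.11-, 7.34- and 4.3-fold in Control 1, Control 2 and Control 3, and this ratio did not differ between the groups beyond its spread (exact permutation test, two-sided, p = 0.9).

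**Figure D4:**
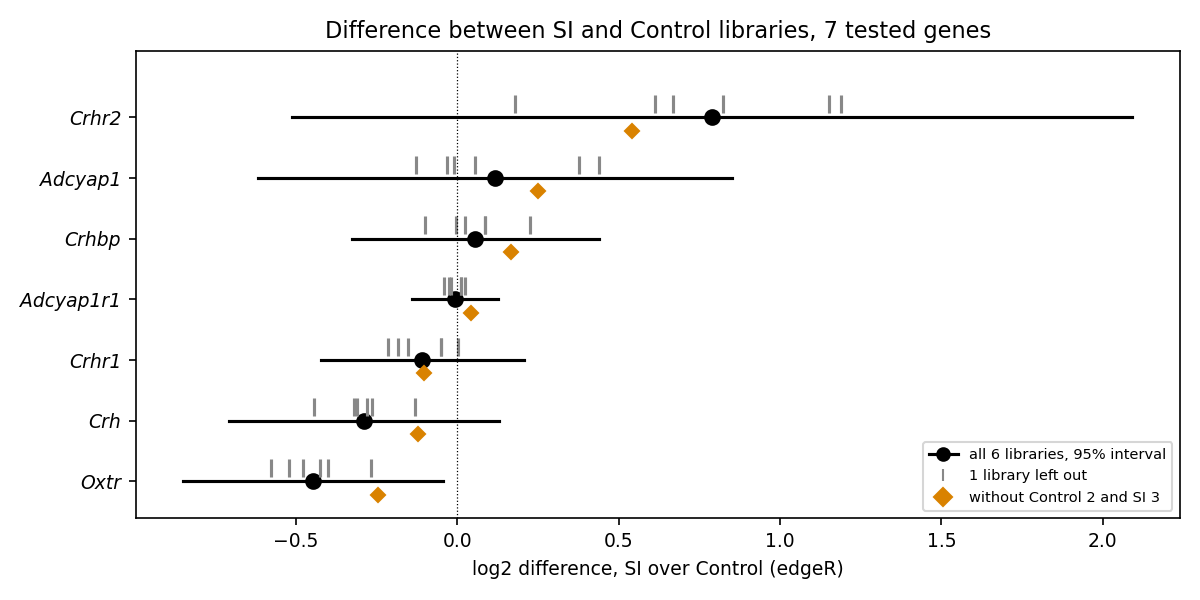
Log2 difference of SI over Control for the 7 tested genes by edgeR (dots) with 95% intervals (lines), the values with 1 library left out (grey ticks) and those without Control 2 and SI 3 (diamonds). Oxtr is the gene whose interval, from -0.85 to -0.05, leaves out 0 before adjustment, and the interval of Adcyap1r1 is the narrowest.

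A stretch of genome before a listed transcript start is shown for the PACAP ligand gene and for its receptor gene. They were picked because the ligand varied most and the receptor least among the genes above 1 FPKM. Each stretch covers the 250 bases before that start, 5′ to 3′ on the plus strand, from RefSeq (GRCm38.p6). Both stretches lie inside the gene spans given above, which begin earlier, so they do not precede the whole gene. Neither holds an exon base in GENCODE M21, whose longest transcripts of both genes also start earlier. For Adcyap1 the outermost of the 2 starts listed for such windows was taken, which also lies inside its gene span. They are chr17:93198767-93199016 for Adcyap1 and chr6:55451728-55451977 for Adcyap1r1, and capitals mark TGACG, the core of the site bound by the cyclic AMP-responsive factor CREB.
Adcyap1: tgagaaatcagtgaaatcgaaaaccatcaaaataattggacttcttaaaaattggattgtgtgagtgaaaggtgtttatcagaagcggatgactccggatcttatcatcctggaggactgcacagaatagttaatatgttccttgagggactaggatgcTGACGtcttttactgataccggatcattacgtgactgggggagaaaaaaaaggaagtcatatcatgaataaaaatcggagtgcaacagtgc
Adcyap1r1: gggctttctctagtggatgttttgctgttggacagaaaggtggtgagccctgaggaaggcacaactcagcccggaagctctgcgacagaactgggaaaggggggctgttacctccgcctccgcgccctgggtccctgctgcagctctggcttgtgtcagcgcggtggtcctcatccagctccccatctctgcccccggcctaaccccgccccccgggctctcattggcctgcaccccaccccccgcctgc
The Adcyap1 stretch has 39.6% G and C and the Adcyap1r1 stretch 65.6%. Windows of this kind were matched for 7 of the 8 genes. By GENCODE M21 the Oxtr window holds 118 exon bases and the Crhbp window 93. The Oxtr and Crhr1 windows also lie inside their own gene spans. Searched on both strands, TGACG was in 3 of the 7 (Avpr1a, Crhbp and Adcyap1), against 17.9% of 27025 genes' windows. The full site TGACGTCA, which contains TGACG, was in 0 of the 7 (1.62% of all), and the AP-1 site TGACTCA in 0 (4.43% of all). The E-box CACGTG was in Oxtr alone (6.05% of all). The palindromic glucocorticoid response element was in 0, but only 0.0037% of all windows hold it, so its absence tells nothing about these genes. A match describes letters and not a site in use.

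By the root mean square gap between centred log2 profiles over the 6 libraries, the genes nearest to Oxtr among 14266 compared were Ntng2 and Clec14a (gap 0.077 each, against a range of 0.84 for Oxtr itself). Nearest to Crh were Lepr and Pdzrn3, to Crhr1 Ccdc136 and Tshz3, to Crhbp Serpinb6b and Gstt1, and to Adcyap1r1 Tmem184c and Prkce. The nearest to Adcyap1, C1ql3 and Cd83, had gaps of 0.125 and 0.141 against a range of 1.11. Those nearest to Crhr2, Lrrc9 and Togaram2, had gaps of 0.263 and 0.266 against a range of 1.95. With 6 libraries and so many genes compared, close profiles can be found by the search alone. Nearness was not tested and does not show shared regulation.

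Of 68 further genes of these pathways, 60 were tested and 0 passed in either direction with edgeR. At an unadjusted p under 0.05, 1 was higher and 2 were lower in SI, where 1.52% and 2% of all genes were. The groups did not overlap for 1 higher and 2 lower genes, against 4.12% of all genes in the higher and 4.73% in the lower direction. The median log2 difference of the 60 was -0.0047.

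Among related ligands and receptors, 3 of 10 were tested and all 3 had overlapping groups. Vip, the related vasoactive intestinal peptide of cortical interneurons, stood at 17.1 ± 4.48 FPKM in SI and 18.4 ± 4.16 FPKM in Control (SD, n = 3 each). Its receptor gene Vipr1, whose protein also binds PACAP, stood at 8.63 ± 0.533 FPKM in SI and 9.36 ± 1.3 FPKM in Control. All 9 genes of peptide processing and breakdown overlapped, with the peptide-trimming carboxypeptidase gene Cpe the most abundant, at 771.6 ± 20.7 FPKM in SI and 761.9 ± 21.7 FPKM in Control.

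Neither signalling branch showed a gene with separate groups. In the Gq branch 6 of 10 means were higher and 4 lower, with a median log2 difference of 0.008, and the protein kinase C gene Prkcb stood at 214.5 ± 1.94 FPKM in SI and 211.4 ± 2.75 FPKM in Control. In the Gs and cyclic AMP branch 11 of 22 were higher and 11 lower, with a median of -0.00013, and Gnas, the gene of the Gs alpha subunit, stood at 795.4 ± 57.4 FPKM in SI and 792.4 ± 73.9 FPKM in Control.

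The 3 genes with separate groups lay in the lists of desensitization and of glucocorticoid feedback. Rgs4, which shortens Gq and Gi signals, stood at 187.1, 162 and 176.3 FPKM in SI 1, SI 2 and SI 3, against 193.7, 227 and 197.8 FPKM in Control 1, Control 2 and Control 3 (log2 difference -0.24, SE 0.082, unadjusted p = 0.021, adjusted p = 0.999 by edgeR). Nr3c1, the glucocorticoid receptor gene, had a log2 difference of -0.15 (SE 0.053), with 19.8 to 20.9 FPKM in SI and 22 to 23.3 FPKM in Control, at an edgeR unadjusted p of 0.025. Fkbp5, a co-chaperone of that receptor that glucocorticoids induce, was at 12.7 ± 1.55 FPKM in SI and 8.53 ± 0.378 FPKM in Control (log2 difference 0.57). Its adjusted p was 0.999 by edgeR, and it was the 1 gene that DESeq2 called over all genes, at an adjusted p of 0.0068.

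**Figure D5:**
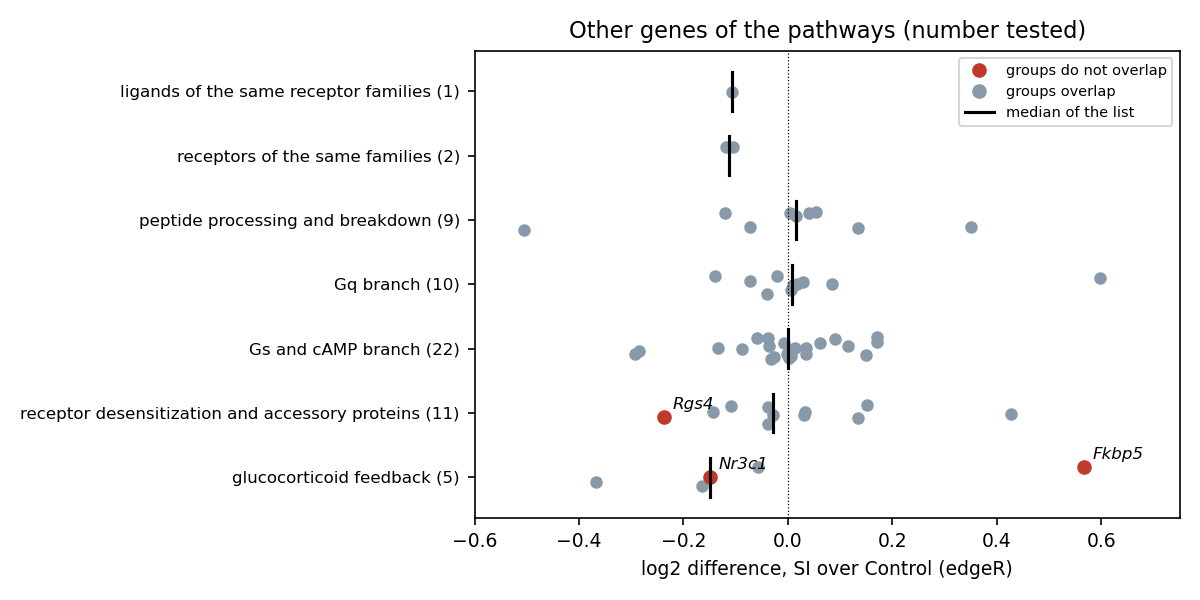
Log2 difference of SI over Control for 60 further genes of the pathways by list (points), with the median of each list (lines) and the number tested in brackets. The groups did not overlap for Rgs4, Nr3c1 and Fkbp5 (red).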

How the data were processed

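The labels name RNAiso Plus for extraction and BGISEQ-500 for sequencing of 50-base reads. HISAT, Bowtie2, RSEM and the build mm10 appear, per the submitters' processing notes, with no order, version or setting. For each library the authors deposited expected counts, not normalized, and FPKM values for every gene, per the file headers. Whether counting used strand is not stated. A table of the whole series was not used (6 columns), since its column codes are in no sample label. A gene absent from 1 library's table was given 0 there, and 1 entry without a symbol was left out, at most 0.00095% of counts.

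Rounded expected counts went into edgeR 4.0.16 (R 4.3.3, quasi-likelihood F-test, filterByExpr with a minimum count of 10 and a minimum total of 15, TMM factors between 0.991 and 1.012). The filter left 15169 genes and removed 4774. P-values were adjusted over all of them by the Benjamini-Hochberg method at 0.05, and standard errors were derived from the F statistic. The fit was tested on simulated counts. DESeq2 1.42.0 and limma 3.58.1, among others, served as alternatives. Ratios were tested by exact permutation. The genes and lists were chosen with earlier results of these data known. Named genes were the 8 genes, the most abundant gene of each pathway list, those at an unadjusted p under 0.05, the largest rise and fall among non-overlapping groups, and the 2 nearest profiles of each gene among those with a mean of at least 1 CPM.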

Additional observations from a re-analysis of the deposited data

How the results depend on the processing

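DESeq2 called 1 gene (306 at an unadjusted p under 0.05) where edgeR called 0 (535), limma-voom 0 (536) and every other setting 0. Of the 7 tested genes, Oxtr, Crh and Crhr2 kept their direction in all 16 alternatives, with log2 differences from -0.58 to -0.24, from -0.44 to -0.12 and from 0.15 to 1.19, and none passed an adjusted p of 0.05 in any of them. Oxtr had an unadjusted p under 0.05 in 7 of the 16, and its adjusted p ranged from 0.785 to 1. Leaving out 1 library at a time turned the direction of the others, with log2 differences from -0.22 to 0.0034 for Crhr1, from -0.10 to 0.225 for Crhbp, from -0.13 to 0.44 for Adcyap1 and from -0.042 to 0.024 for Adcyap1r1. It also gave log2 ratio differences from -0.41 to 0.096 for Adcyap1r1 over Adcyap1 and from -1.34 to 0.0017 for Crhr1 over Crhr2. Adcyap1r1 was 0.0025 with upper-quartile factors and 0.042 without Control 2 and SI 3. The cause was not tested. The replicate block (replicate number as a term) gave 0 calls, 331 genes at an unadjusted p under 0.05 and a log2 difference of -0.43 for Oxtr. The same-numbered libraries did not deviate together (r = 0.0254, -0.269 and -0.492 for numbers 1, 2 and 3). With 3 libraries a group, centred within the group, these correlations cannot decide whether the numbers pair the libraries. The highest was between SI 3 and Control 2 (r = 0.438), the libraries with the most striatal marker RNA. The ratio of Oxtr to Avpr1a could not be computed, since Avpr1a was at 0 in Control 2. Depth limits Avpr1a and Crhr2 most, at 0 to 29 counts a library.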

Other observations

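The ligands of Oxtr and Avpr1a were themselves scarcely present. Oxt had 2, 2.01 and 5 expected counts in SI 1, SI 2 and SI 3 and 0 in each Control library, where a 0 allows up to 3 counts. Avp had 1, 15.99 and 1 expected counts in SI and 1, 7 and 4 in Control. Neither passed the filter on low counts, and neither was tested. Hypothalamic peptide neuron markers, which include both genes, summed to 1.52 to 3.55 FPKM in SI and 2.04 to 2.53 FPKM in Control, and 0 of the 8 reached a mean of 1 FPKM. Their part in these counts was not tested.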
